A study of Mus musculus with 8 samples.

Results

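Autophagy is carried out by a set of core proteins that act one after another, and the messenger RNAs (mRNAs) of 40 such genes were followed here in mouse cells deprived of glucose. The genes were chosen by name and sorted into 5 steps: the initiation complex (5 genes), the class III phosphatidylinositol 3-kinase complex, called the PI3K complex (7 genes), phospholipid binding and transfer (9 genes), conjugation (6 genes) and fusion with the lysosome (13 genes). All 40 were found among the 49492 rows of the deposited table and all 40 passed a filter on low values, as did 16232 genes in total.

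The study measured polyA RNA by RNA-seq in mouse embryonic fibroblasts (MEFs), connective tissue cells cultured from embryos. The cells came from floxed-Pontin mice (Pontin f/f), were infected with a lentivirus carrying Flag-tagged Pontin, and were selected with hygromycin as stable lines, whose own Pontin gene is deleted by infection with a Cre virus. Pontin is an ATPase found in chromatin remodelling complexes, and its gene is Ruvbl1. In Pontin WT MEFs the added copy was the normal protein, and in Pontin RA MEFs 2 arginines that are methylated under starvation were replaced by alanine. Each line was kept in normal medium or in medium without glucose, and each of the 4 groups held 2 samples. The length of starvation for these libraries was not given in the sources used here. Each Pontin form was carried by 1 cell line, so the line and the Pontin form cannot be told apart. The methods state in general that experiments were repeated independently, but no source says that the 2 samples of a group came from separate cultures, so the p-values measure the spread between these samples, which may be technical.

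Values are read counts per gene divided by a library size to which the authors had applied a factor for each sample, in CPM, which brings the libraries to nearly the same total. Between 43205841 and 56363034 reads lay behind the samples, and the lowest value of any of the 40 genes, 4.09, still rested on 178 reads or more. Both mates of a pair appear to have been counted, so the RNA fragments behind these reads are fewer. Changes are differences of log2(value + 1), which understate the fold of low genes. Each was tested with limma over all 16232 genes with Benjamini-Hochberg (BH) adjustment, and a gene is said to have risen, fallen or differed where the adjusted p was under 0.05. Of 11 fibroblast markers, 10 reached a value of 1 in every sample. So did 1 of 6 epithelial, 3 of 7 blood cell and 1 of 5 endothelial markers. Epcam, Ptprc and Pecam1, defining markers of epithelial, blood and endothelial cells, stayed under 1 throughout. Higher members of these lists were nevertheless present: Krt19 (up to 99.6), Csf1r (up to 20.1), Cd14 (up to 7.72), Kdr (up to 6.54), Cd68 (up to 4.51) and Tek (up to 3.06). The fibroblast markers did not hold a fixed level. Their summed value ran from 10842 to 11187 in the 4 samples in normal medium, from 5571 to 5656 in starved WT MEFs and from 7362 to 7374 in starved RA MEFs. The 6 epithelial markers summed to between 83.2 and 102 in normal medium. Under starvation they summed to between 37.3 and 38.8 in WT and 64.9 and 68.8 in RA MEFs. The 7 blood cell markers summed to between 21 and 26.2 in all samples. For the 5 endothelial markers the sum was 2.05 to 3.44 in normal medium. It was 8.92 to 9.43 in starved WT and 6.03 to 6.38 in starved RA MEFs. The part of these markers in the changes below was not tested, and in whole cultures a change in the cells present and a change in RNA per cell cannot be told apart. Ruvbl1, which here sums whatever Pontin transcripts the counting caught, stood at 28.4 and 27.6 in the 2 WT samples in normal medium and at 27.9 and 28.4 under starvation. In RA MEFs it was higher, at 36.8 and 32 in normal medium and 45 and 42.9 under starvation, so the lines also differed in the amount of this mRNA. The difference was 0.62 (limma, SE 0.0646, BH-adjusted p = 2.94e-07) under starvation. Ruvbl1 rose on starvation by 0.35 in RA MEFs (limma BH-adjusted p = 0.000151). In WT MEFs its change of 0.0097 did not pass the test. The RA response less the WT response was 0.34 (limma BH-adjusted p = 0.00568). The part of this mRNA in the changes below was not tested. An expression level taken from whole-transcript reads does not check the replaced arginines.

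In autophagy a cell encloses part of its own content in a double membrane, the autophagosome, and delivers it to the lysosome for breakdown. The Ulk1 kinase complex starts the process, and the PI3K complex then marks the site with a phosphoinositide lipid. Proteins that read this lipid and carry or flip phospholipids let the membrane grow, a ubiquitin-like conjugation system attaches ATG8 proteins to it, and SNARE proteins with the HOPS tethering complex join the closed vesicle to the lysosome. Transcription factors of the TFEB family, which bind the CLEAR element, and FOXO factors are known to act on many of these genes when nutrients are short.

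Since the study asked which factors act on autophagy genes under starvation, the promoters were searched for short motifs on both strands. RefSeq promoter sequences (GRCm38.p6, from 250 bases before to 50 after the start site) were matched for 32 of the 40 genes. The core of the CLEAR element, TCACGTGA, was found in 4 of them (12.5%), beside 0.974% of all promoters in the same table and 2.13% of those of tested genes. The 4 were Nrbf2, Atg3, Vps16 and Vps33a. The E-box CACGTG, which lies within the CLEAR core, was found in 7 promoters (21.9%), beside 7.15% of all and 11.5% of those of tested genes. The other 3 were those of Atg14, Atg5 and Atg7. A FOXO element, GTAAACA, and an ATF4 element, TGATGNAA, were found in no promoter of the 32 genes, beside 3.65% and 3.97% of all promoters and 3.05% and 2.66% of those of tested genes. These counts describe letters in short windows. A match is not a binding site, and the lack of one says only that the letters are not in that window. By chromatin immunoprecipitation the study reported FOXO3a at FOXO elements of genes that include Atg14. It also reported methylated Pontin at sites far from start sites. Sequence outside the windows was not searched here.

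The stretch from 250 bases before to 10 bases after the start site is given for the 4 promoters with the CLEAR core and for Atg14, whose mRNA differed most between the lines under starvation among the 40 genes. Capitals mark the CLEAR core and the E-box. Vps33a held the core at 29 and again at 13 bases before its start site, Vps16 at 19 bases, Atg3 at 72 bases with a further E-box at 94 bases, and Nrbf2 at 209 bases, while the E-box of Atg14 began 1 base before its start site. The RefSeq start sites of Atg14 and Atg7 used here lie within the genes as GENCODE M21 draws them. For Atg7, on the plus strand, the gene begins at chr6:114643097 and the window at chr6:114670846, so its E-box lies well inside the gene.
Nrbf2, chr10:67285272-67285531, minus strand: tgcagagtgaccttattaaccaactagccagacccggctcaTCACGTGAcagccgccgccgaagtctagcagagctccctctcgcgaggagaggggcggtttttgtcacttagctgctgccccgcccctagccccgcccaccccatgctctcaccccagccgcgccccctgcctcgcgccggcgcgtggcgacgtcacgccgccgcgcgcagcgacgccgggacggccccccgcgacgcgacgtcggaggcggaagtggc
Atg3, chr16:45158579-45158838, plus strand: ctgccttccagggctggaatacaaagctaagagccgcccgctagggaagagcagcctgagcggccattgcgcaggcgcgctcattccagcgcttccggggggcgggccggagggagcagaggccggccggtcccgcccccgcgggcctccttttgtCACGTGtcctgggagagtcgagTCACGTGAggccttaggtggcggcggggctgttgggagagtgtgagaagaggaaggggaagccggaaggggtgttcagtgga
Vps16, chr2:130424070-130424329, plus strand: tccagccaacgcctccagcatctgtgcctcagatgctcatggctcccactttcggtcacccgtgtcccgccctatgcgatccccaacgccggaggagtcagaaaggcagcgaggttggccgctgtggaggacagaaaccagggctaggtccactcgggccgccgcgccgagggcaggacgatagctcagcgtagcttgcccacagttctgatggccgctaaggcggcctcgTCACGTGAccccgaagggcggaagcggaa
Vps33a, chr5:123573006-123573265, minus strand: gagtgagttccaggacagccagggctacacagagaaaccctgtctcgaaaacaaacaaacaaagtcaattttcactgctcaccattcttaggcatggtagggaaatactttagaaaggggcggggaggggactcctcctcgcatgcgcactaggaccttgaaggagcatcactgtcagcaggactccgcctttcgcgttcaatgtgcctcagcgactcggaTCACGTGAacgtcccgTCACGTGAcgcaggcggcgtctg
Atg14, chr14:47568425-47568684, minus strand: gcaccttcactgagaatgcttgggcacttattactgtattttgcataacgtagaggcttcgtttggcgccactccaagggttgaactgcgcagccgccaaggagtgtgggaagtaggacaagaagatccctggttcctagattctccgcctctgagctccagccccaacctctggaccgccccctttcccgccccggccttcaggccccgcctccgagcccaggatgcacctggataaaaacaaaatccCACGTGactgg

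These genes did not share one response. Vps16 and Vps33a rose under starvation in both lines, and each rose less in RA MEFs. Atg3 rose in both lines with no difference between the responses that passed the test. Nrbf2, a PI3K complex subunit, stood apart from them, at 28.8 ± 0.654 in normal and 25.5 ± 0.427 in starved WT MEFs (mean ± SD, n = 2), and it fell in RA MEFs, by 0.22 on the log2 scale (limma BH-adjusted p = 0.0162), though not without the first normal or the first starved RA sample (adjusted p = 0.268 and 0.164).

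Starvation was compared with normal medium in each line to ask whether the autophagy genes were induced. In WT MEFs 34 of the 40 genes rose and 2 fell, beside 39.3% higher and 39.2% lower calls among all tested genes. In RA MEFs 32 rose and 2 fell, beside 35% higher and 33.7% lower among all. The median change of the 40 genes was 0.58 in WT and 0.53 in RA MEFs on the log2 scale, and that of all tested genes was 0.00488 and 0.01. Both lines therefore induced most of the machinery, and 31 genes rose in both. A log2 change of at least 1 was reached by 10 genes in WT MEFs, beside 1272 of all 16232 tested genes. In RA MEFs it was reached by 4, Atg13, Atg14, Vps11 and Vps39, which also belonged to the 10. The shares of all tested genes that rose in both lines or reached such a change in RA MEFs were not counted. Nothing is therefore read from the 31 or from 10 against 4.

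**Figure D1:**
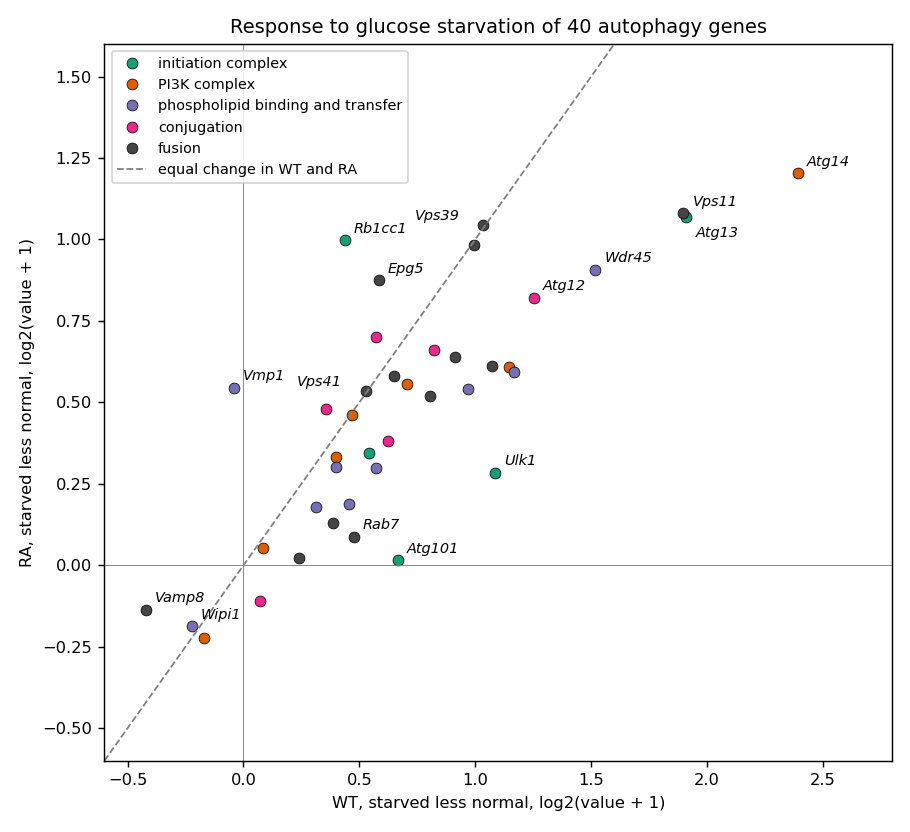
Each point is 1 of 40 genes, coloured by step. The x axis gives its log2(value + 1) change on glucose starvation in WT and the y axis that in RA MEFs, both as means of 2 samples against 2. Atg14, Atg13, Vps11 and Wdr45 lie far right of the dashed line of equal change, while Rb1cc1, Vmp1 and Epg5 lie above it.

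The test of the difference itself, called the interaction here, subtracts the WT response from the RA response. It was lower for 19 genes and higher for 4, beside 26.1% lower and 24.5% higher calls among all tested genes. The median interaction was -0.19 over the 40 genes and -0.01 over all. Of the 34 genes that rose in WT MEFs, 19 rose less in RA MEFs, 2 rose more and 13 had no difference that passed the test. Among all 6387 tested genes that rose in WT MEFs, 53.2% had a lower and 4.81% a higher interaction, so the division of the autophagy genes lay near that of induced genes in general. Among the 10 genes with a WT change of at least 1, the interaction was lower for all but Vps39, beside 74.7% of the 1272 tested genes with such a change. Genes chosen for a high WT response are drawn toward lower interactions, since the interaction subtracts that response, so nothing is read from these counts. The 4 higher genes were Rb1cc1, Vmp1, Epg5 and Vamp8. The study listed Ulk1, Atg14, Uvrag, Vps11 and Vps33a from its RNA-seq data, so their direction here is not independent evidence. Atg13, Atg2a and Atg9a, for which it gives PCR primers, may have been picked from the same libraries. The study also reported quantitative PCR and immunoblots of methylation-dependent genes, which are not part of the data read here.

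Direct comparison of the lines gave the same division by medium. In normal medium 3 genes were higher in RA than in WT MEFs and none was lower, beside 6.68% higher and 2.95% lower among all tested genes. They were Zfyve1 (difference 0.27, limma BH-adjusted p = 0.0434), Atg12 (0.25, limma BH-adjusted p = 0.0108) and Rab7 (0.20, limma BH-adjusted p = 0.00303). Once glucose was removed, RA samples of all 3 genes fell below WT samples. None of the 3 passed without the first normal WT sample (adjusted p = 0.0639 for Zfyve1, 0.1 for Atg12 and 0.0528 for Rab7). Zfyve1 also failed without 6 other samples in turn (adjusted p up to 0.289), all but the second normal RA sample, and Atg12 without that sample (adjusted p = 0.114). The lower level of Atg12 under starvation failed without the second starved WT or the first starved RA sample (adjusted p = 0.133 and 0.0927). Under starvation 23 genes were lower and 6 higher in RA MEFs, beside 32.1% lower and 30.8% higher among all, and 11 did not pass the test. The 2 lines did not overlap for 34 of the 40 genes under starvation, with the 2 RA samples below both WT samples for 26 genes and above both for 8, where 41.8% and 39.7% of all tested genes lay so.

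Summarized by step, the lines lay furthest apart at initiation. The median log2 level of the genes of a step, taken relative to normal WT MEFs, gives 1 number per sample. For the initiation complex it was 0.71 and 0.63 in the starved WT samples and 0.30 and 0.23 in the starved RA samples. For conjugation it was 0.54 and 0.65 in WT and 0.64 and 0.58 in RA, and the samples overlapped. They overlapped as well for the PI3K complex, at 0.53 and 0.48 in WT and 0.45 and 0.48 in RA, and for phospholipid binding and transfer, at 0.47 and 0.44 in WT and 0.44 and 0.37 in RA. For fusion the samples lay close, at 0.67 and 0.64 in WT and 0.60 and 0.57 in RA, with no overlap. In normal medium all 5 medians of the RA samples lay between -0.01 and 0.07. The median of the genes' interactions was -0.65 for initiation, -0.27 for phospholipid binding and transfer, -0.21 for fusion, -0.17 for conjugation and -0.07 for the PI3K complex. These medians describe 5 to 13 genes each, were not tested against each other, and hide genes that moved apart within a step. Tested gene by gene under starvation, RA MEFs were lower for 4 and higher for 1 of the 5 initiation genes. For phospholipid binding and transfer 6 of 9 were lower and 1 higher, and for fusion 8 of 13 and 3. For conjugation 3 of 6 were lower and 1 higher, and for the PI3K complex 2 of 7 and none. Among all tested genes 32.1% were lower and 30.8% higher.

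**Figure D2:**
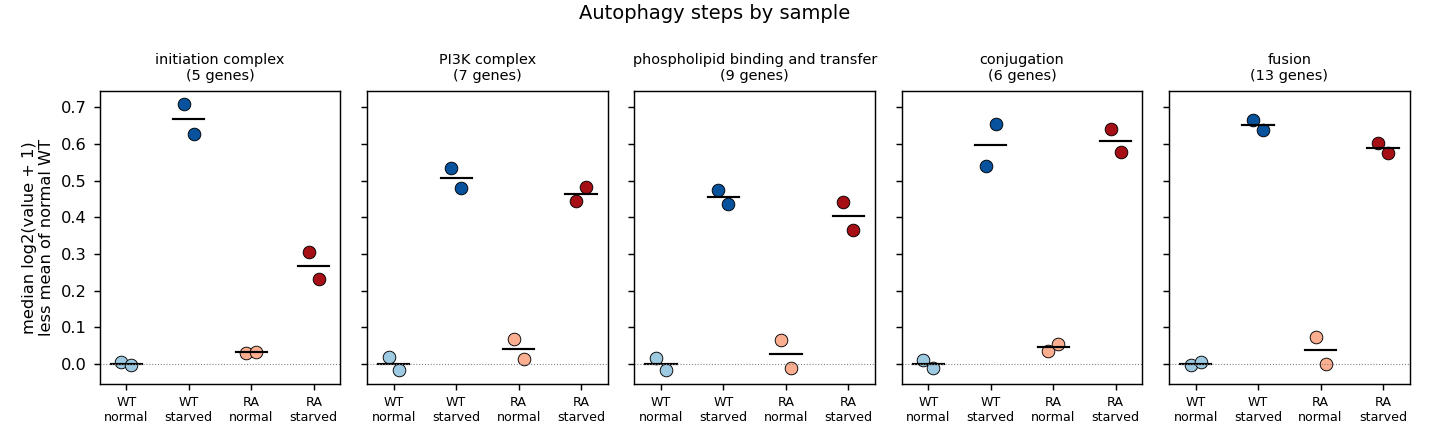
Each panel is 1 step, and each point is 1 of 8 samples. The y axis gives the median over the genes of the step of log2(value + 1) less the mean of the 2 normal WT samples, and the short line is the mean of a group. The medians of the starved RA samples sit well below those of the starved WT samples for the initiation complex and close to them for the other steps. A median does not show how single genes of a step differed between the lines.

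The initiation complex consists of the kinase Ulk1 or its paralogue Ulk2, the scaffold Rb1cc1 (also called FIP200), and the adaptors Atg13 and Atg101. All 5 genes rose in WT MEFs and 4 rose in RA MEFs. The interaction was lower for 3, higher for 1 and not called for 1. Among all tested genes 39.3% rose and 39.2% fell in WT MEFs, and 35% rose and 33.7% fell in RA MEFs. Their interaction was lower for 26.1% and higher for 24.5%. The same shares stand beside the counts of every step below. Atg13 stood at 22.4 and 21 CPM in the normal WT samples and at 85.1 and 83.5 in the starved ones, a 3.89-fold rise of the means. In RA MEFs it stood at 21.2 and 24 in normal medium and 48.7 and 48.3 under starvation, a 2.14-fold rise. The lines overlapped in normal medium and both rose, but the starved RA samples lay far below the starved WT samples. The interaction was -0.84 (limma, SE 0.0861, BH-adjusted p = 5.3e-07).

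Ulk1, the kinase, showed the same start and a smaller rise in RA MEFs. Its values were 33.6 and 33.4 in normal and 72.5 and 71.8 in starved WT MEFs. In RA MEFs they were 34.2 and 31.3 in normal medium and 40.7 and 39.5 under starvation. The rise was 2.15-fold in WT and 1.22-fold in RA MEFs, and the interaction was -0.80 (limma, SE 0.0755, BH-adjusted p = 2.04e-07). Its paralogue Ulk2 rose from 25.8 and 26.3 to 41.6 and 35.3 in WT MEFs and from 24.6 and 24.1 to 32.4 and 30.02 in RA MEFs. The starved RA samples of Ulk2 lay below both starved WT samples, and that difference was -0.29 (limma, SE 0.0711, BH-adjusted p = 0.00198), with an adjusted p of 0.0574 without the first starved WT sample. The interaction of Ulk2 was -0.19 with a 95% interval of -0.41 to 0.02, which did not pass the test (limma BH-adjusted p = 0.119). It did pass without the second starved WT sample (adjusted p = 0.0156), and it ranged from 0.0156 to 0.519 over the 16 alternatives.

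Atg101, which stabilizes Atg13, was the initiation gene that rose in WT MEFs alone by the test. It went from 23.5 and 22.5 to 38.3 and 36.1 in WT MEFs. In RA MEFs it was at 26.9 and 26.2 in normal medium and 28.3 and 25.6 under starvation, where the samples overlapped. The interaction was -0.65 (limma, SE 0.0914, BH-adjusted p = 1.8e-05). Rb1cc1, in contrast to its partners, rose more in RA MEFs. It went in WT MEFs from 78.4 and 79 to 105 and 109, and in RA MEFs from 86.6 and 80.4 to 168 and 168, so that each starved RA sample lay far above each starved WT sample. The interaction was 0.56 (limma, SE 0.0611, BH-adjusted p = 1.08e-06).

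Divided by the length of the exons in kilobases (kb), the genes of the complex can be set beside each other. In normal WT MEFs the mean level per kb was 5.16 for Ulk1, 4.36 for Ulk2, 5.36 for Rb1cc1 and 4.97 for Atg13, while Atg101 stood higher at 14.4. After starvation of WT MEFs it was 11.1 for Ulk1, 6.43 for Ulk2, 7.27 for Rb1cc1, 19.3 for Atg13 and 23.3 for Atg101. The levels of Ulk1, Ulk2, Rb1cc1 and Atg13 lay near each other in normal medium and further apart under starvation, with Atg13 next to Atg101 and Ulk2 lowest. Exon lengths were summed over all annotated isoforms of GENCODE M21 (GRCm38), which is not the build the reads were mapped to, so small differences in level per kb carry little weight.

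The PI3K complex is built on the lipid kinase Pik3c3 (Vps34), its regulatory subunit Pik3r4 and Becn1 (Beclin 1). Atg14 joins this core in the form that starts autophagosomes, Uvrag replaces it in a form that acts on endosomes, Nrbf2 binds the Atg14 form, and Ambra1 is a regulator that binds Becn1. Of the 7 genes 5 rose in each line. The interaction was lower for 3 and higher for none, beside 26.1% and 24.5% of all tested genes. Atg14 had the lowest interaction of all 40 genes. It stood at 9.09 and 11.4 in normal and 59 and 56.5 in starved WT MEFs, a 5.63-fold rise. In RA MEFs it was 11 and 11.6 in normal medium and 28 and 26.7 under starvation, a 2.42-fold rise. The groups in normal medium overlapped and the starved groups did not. The interaction was -1.19 (limma, SE 0.12, BH-adjusted p = 4.77e-07), and the difference under starvation alone was -1.05 (limma, SE 0.0852, BH-adjusted p = 1.33e-08).

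Uvrag, the alternative subunit, rose from 31 and 32.2 to 70.6 and 71.4 in WT MEFs and from 27.4 and 30.3 to 44.5 and 44.5 in RA MEFs, with an interaction of -0.53 (limma, SE 0.0777, BH-adjusted p = 2.6e-05). The 3 core genes had smaller interactions. Becn1 rose by 0.70 in WT and 0.56 in RA MEFs, and its interaction of -0.15 passed the threshold (limma BH-adjusted p = 0.037) but held in 6 of 16 alternative analyses. It was lost under 7 of the 8 omissions of a single sample, all but that of the second normal RA sample, and by edgeR, DESeq2 and scaling to total reads, with adjusted p up to 0.291. Pik3c3 rose by 0.40 and 0.33, with an interaction of -0.07 and a 95% interval of -0.27 to 0.13. Pik3r4 changed by 0.09 in WT and 0.05 in RA MEFs, neither of which passed the test. Becn1 shares 43.9% of its exon bases with Cntd1 on the opposite strand, and since the handling of strand is not stated, reads of the pair may not have been told apart. The same holds for Uvrag, which shares 17.6% with the antisense gene model Gm45187, whose value reached 4.07.

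Ambra1 was the gene of this step whose responses differed least. It stood at 41.9 and 38.2 in normal and 58.3 and 53 in starved WT MEFs. Its values in RA MEFs were 39.4 and 39.99 in normal medium and 54.8 and 55.3 under starvation, and the 4 starved samples overlapped. It rose in both lines, by 0.47 and 0.46. The interaction was -0.00427 with a 95% interval of -0.18 to 0.17, so that a difference as large as that of Atg14 or Uvrag lies outside it. The smaller differences within the interval were not resolved by 2 samples per group.

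Phospholipid binding and transfer covers Wipi1, Wipi2 and Wdr45, which bind the lipid made by the PI3K complex, and Zfyve1 (DFCP1), which marks the membrane patch from which autophagosomes grow. It also covers the lipid transfer proteins Atg2a and Atg2b and the scramblases Atg9a, Vmp1 and Tmem41b. In WT MEFs 7 of the 9 genes rose and 1 fell, and in RA MEFs 8 rose and 1 fell. The interaction was lower for 5 and higher for 1, beside 26.1% and 24.5% of all tested genes. Wdr45 had the lowest interaction of the step. It rose from 14.7 and 15.9 to 45.5 and 45.9 in WT MEFs, a 2.98-fold rise, and from 17.7 and 17.1 to 33.1 and 34.1 in RA MEFs, a 1.93-fold rise. In normal medium both RA samples lay above both WT samples, a difference that did not pass the test, and under starvation both lay below, and the interaction was -0.61 (limma, SE 0.0887, BH-adjusted p = 2.56e-05). Wdr45 shares 24.7% of its exon bases with the gene model Gm45208 on the same strand, where reads could be split or counted for both.

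Vmp1, a scramblase of the endoplasmic reticulum, had the highest interaction of all 40 genes. It shares 2.38% of its exon bases with the microRNA gene Mir21a on the same strand, where reads could be split or counted for both. In WT MEFs its values were 122 and 132 in normal medium and 123 and 123 under starvation, and no change was detected (log2 change -0.04, 95% interval -0.13 to 0.05, limma BH-adjusted p = 0.382). Under scaling to total reads this change passed the test as a fall (adjusted p = 0.0169). In RA MEFs it rose from 136 and 138 to 199.98 and 201. It was the 1 gene among the 40 that rose in RA MEFs without a called change in WT MEFs, and the interaction was 0.59 (limma, SE 0.0589, BH-adjusted p = 4.27e-07). Tmem41b, the other scramblase of the endoplasmic reticulum, rose in both lines, by 0.40 in WT and 0.30 in RA MEFs, with an interaction of -0.10 and a 95% interval of -0.25 to 0.05. Vmp1 and Tmem41b thus moved apart although the products are related in fold and function.

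Paralogues of this step also differed. Wipi2 rose from 78.3 and 75.4 to 113 and 116 in WT MEFs and from 81.7 and 83.8 to 105 and 99.3 in RA MEFs, and its interaction was -0.27 (limma, SE 0.0609, BH-adjusted p = 0.00136). Wipi1 fell in both lines by the test. It went from 36.5 and 36.2 to 30.7 and 31.3 in WT MEFs and from 36.2 and 36 to 29.3 and 34 in RA MEFs, with log2 changes of -0.22 and -0.19 and an interaction of 0.04 whose 95% interval was -0.16 to 0.23. The fall in RA MEFs was lost without the first starved or the first normal RA sample (adjusted p = 0.31 and 0.0504). In each line Wipi1 and Wipi2 thus had changes of opposite sign.

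Atg2a, a tunnel-like protein that carries phospholipids to the growing membrane, rose from 33.1 and 31 to 64.8 and 62.5 in WT MEFs and from 32.8 and 30.7 to 47.2 and 46.2 in RA MEFs. Atg2b rose from 47.2 and 44.3 to 64 and 62.3 in WT MEFs and from 47.9 and 41.4 to 49.3 and 52.4 in RA MEFs. Both paralogues rose less in RA MEFs, and the rise of Atg2b there was lost without the second normal or the second starved RA sample (adjusted p = 0.232 and 0.121). The interaction was -0.43 (limma, SE 0.0771, BH-adjusted p = 0.000208) for Atg2a and -0.27 (limma, SE 0.0879, BH-adjusted p = 0.0177) for Atg2b, the latter being called in 10 of 16 alternative analyses and lost without the second normal WT sample, the first starved WT sample, the first normal RA sample or the first starved RA sample or with no filter or scaling to total reads (adjusted p up to 0.0944 over the alternatives). Zfyve1 rose by 1.17 in WT and 0.59 in RA MEFs, with an interaction of -0.57 (limma BH-adjusted p = 0.00043). Atg9a, the scramblase of the vesicles that seed the membrane, rose by 0.31 and 0.18, and its interaction of -0.13 had a 95% interval of -0.30 to 0.03. The rise of Atg9a in RA MEFs was lost without the first normal or the first starved RA sample (adjusted p = 0.052 and 0.0994), and 31.8% of its exon bases lie in Gm29253 on the same strand.

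**Figure D3:**
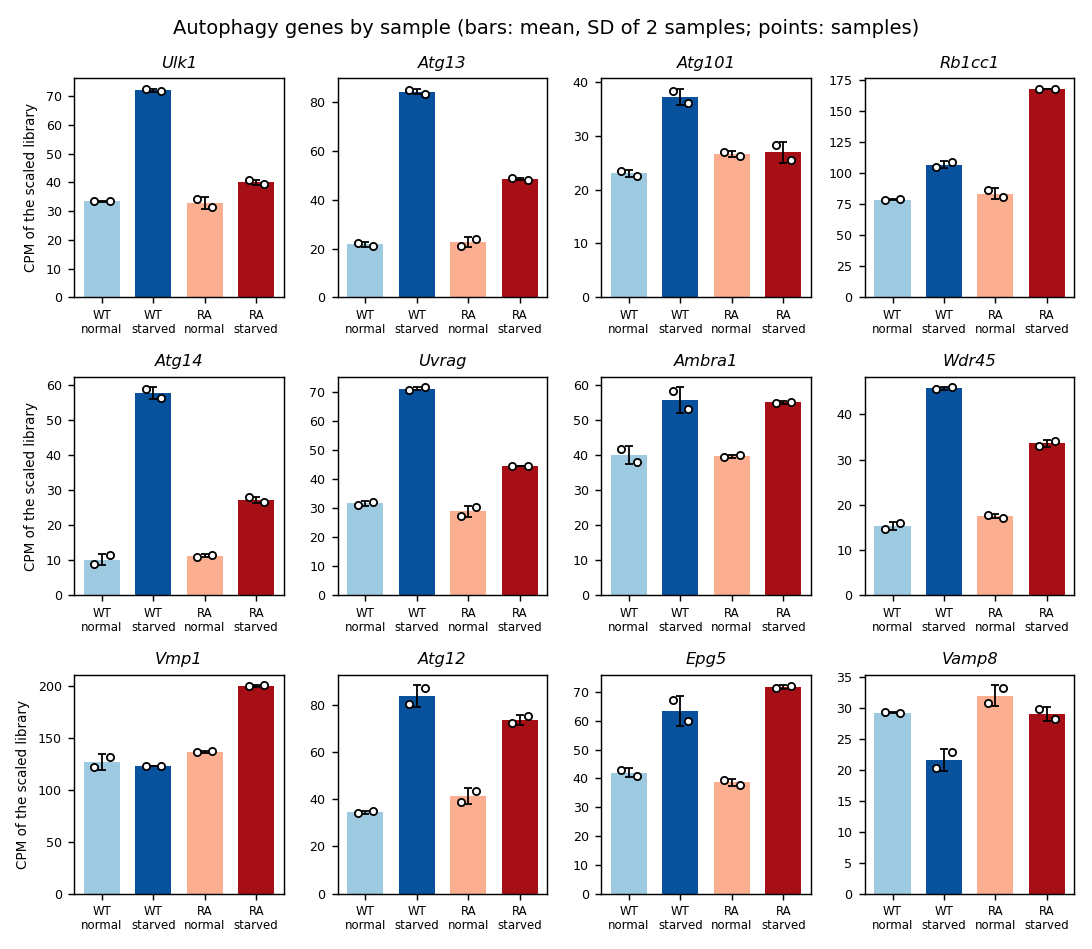
Each panel is 1 of 12 genes of the initiation, PI3K, phospholipid, conjugation and fusion steps. Bars give the mean CPM of the scaled library, error bars the SD of 2 samples, and points the samples, on axes that start at 0. Starved RA MEFs stand below starved WT MEFs for Ulk1, Atg13, Atg101, Atg14, Uvrag, Wdr45 and Atg12, level with them for Ambra1, and above them for Rb1cc1, Vmp1, Epg5 and Vamp8.

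Conjugation works as in ubiquitin transfer. Atg7 is the activating enzyme, Atg10 and Atg3 are the transfer enzymes for Atg12 and for ATG8 proteins, and Atg12 joined to Atg5 binds Atg16l1 to form the ligase. In each line 5 of the 6 genes rose and none fell. The interaction was lower for 2, Atg12 and Atg16l1, and higher for none, beside 26.1% lower and 24.5% higher among all tested genes. The lower share of the step, 33.3%, lies near that of all genes, so nothing is read from the count. Atg12 went from 34.1 and 34.9 to 80.4 and 86.9 in WT MEFs and from 38.9 and 43.6 to 72.1 and 75.1 in RA MEFs. The RA samples were above WT in normal medium and below it under starvation, and the interaction was -0.43 (limma, SE 0.081, BH-adjusted p = 0.00031). Atg16l1 rose by 0.62 in WT and 0.38 in RA MEFs. Its interaction of -0.24 (limma BH-adjusted p = 0.0223) was called in 10 of 16 alternative analyses, and was lost without the second normal WT, the first starved WT, the second normal RA or the second starved RA sample, with no filter and under scaling to total reads (adjusted p up to 0.142).

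The enzymes showed no lower response in RA MEFs that passed the test. Atg7 stood at 20.6 and 20.54 in normal and 27.2 and 26.1 in starved WT MEFs. Its values in RA MEFs were 23.1 and 22.5 in normal medium and 32.5 and 31.8 under starvation. Both starved RA samples lay above both starved WT samples, by 0.26 (limma, SE 0.0603, BH-adjusted p = 0.00116), while the interaction of 0.12 had a 95% interval of -0.06 to 0.30. Atg10 was the lowest expressed of the 40 genes. It rose from 4.39 and 4.51 to 6.37 and 7.89 in WT MEFs and from 4.09 and 4.3 to 7.95 and 6.98 in RA MEFs, and at this level the interaction, 0.13, had the widest interval of the 40, -0.22 to 0.48. Atg3 rose by 0.82 in WT and 0.66 in RA MEFs. Its interaction of -0.16 had a 95% interval of -0.30 to -0.02 for the single gene but did not pass after adjustment (limma BH-adjusted p = 0.0555). Atg5 changed by 0.07 in WT and -0.11 in RA MEFs, neither of which passed the test. With the replicate number as a block the interaction of Atg3 passed (adjusted p = 0.0475). Leaving out 1 sample brought 2 of these over the threshold: the interaction of Atg3 without the first normal WT sample (adjusted p = 0.0387) and that of Atg5 without the first starved RA sample (adjusted p = 0.0381, with a fall in RA MEFs at adjusted p = 0.0376).

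Fusion is carried out by the autophagosomal SNARE Stx17 with Snap29 and the lysosomal SNARE Vamp8. The small GTPase Rab7 and the adaptor Plekhm1 recruit the HOPS complex, Epg5 is a further tether, and Tecpr1 binds conjugated Atg12 at the lysosome. HOPS has 6 subunits. Vps11, Vps16, Vps18 and Vps33a are shared with the endosomal CORVET complex, whereas Vps39 and Vps41 belong to HOPS alone. In WT MEFs 12 of the 13 fusion genes rose and 1, Vamp8, fell. In RA MEFs 10 rose and none fell. The interaction was lower for 6 and higher for 2, beside 26.1% and 24.5% of all tested genes.

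The HOPS subunits rose to different extents. Vps11 had the lowest interaction of the step, at 41 and 42.8 in normal and 158 and 160.1 in starved WT MEFs, a 3.79-fold rise. RA MEFs held 46.7 and 45.9 in normal medium and 97.5 and 100.4 under starvation, a 2.14-fold rise. The interaction was -0.82 (limma, SE 0.0608, BH-adjusted p = 1.09e-08). Vps33a went from 40.5 and 40.2 to 87.7 and 84.5 in WT MEFs and from 40.6 and 40.4 to 64.6 and 60.3 in RA MEFs, with an interaction of -0.46. For Vps16 the interaction was -0.27, with values of 106 ± 4.83 (mean ± SD, n = 2) in starved WT and 85.3 ± 0.185 in starved RA MEFs. For Vps18 it was -0.07 with a 95% interval of -0.25 to 0.11, and it did not pass the test. The difference of Vps18 between the lines under starvation was -0.15 (limma, SE 0.059, BH-adjusted p = 0.034), a call lost without any 1 of the 4 starved samples (adjusted p up to 0.126).

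For the subunits of HOPS alone no difference between the responses was detected. Vps39 rose from 27.1 and 27.2 to 56.9 and 56.4 in WT MEFs and from 30.1 and 30.1 to 65 and 61.1 in RA MEFs. Vps41 rose from 59.9 and 55.1 to 83.5 and 83 in WT MEFs and from 62.5 and 60.3 to 90.6 and 88.2 in RA MEFs. The interaction was 0.00933 (95% interval -0.14 to 0.16) for Vps39 and 0.00588 (95% interval -0.14 to 0.15) for Vps41. Neither interval reached the value of Vps11, Vps33a or Vps16. Per kb of exon, the mean level in normal WT MEFs was 15 for Vps16, 8.54 for Vps41, 8.49 for Vps11, 8.42 for Vps33a, 5.29 for Vps18 and 3.16 for Vps39. In starved WT MEFs Vps11 stood first at 32.2, followed by Vps16 at 28.5, Vps33a at 18, Vps41 at 12.4, Vps18 at 8.42 and Vps39 at 6.59.

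**Figure D4:**
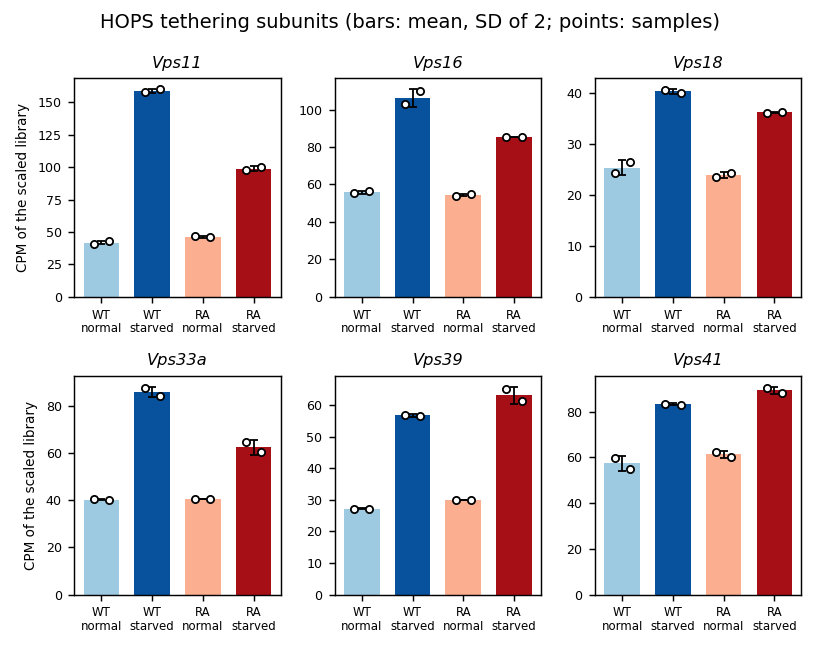
Each panel is 1 subunit of the HOPS tethering complex. Bars give the mean CPM of the scaled library, error bars the SD of 2 samples, and points the samples, on axes that start at 0. Under starvation RA MEFs stand below WT MEFs for Vps11, Vps16, Vps18 and Vps33a and above them for Vps39 and Vps41. The differences of Vps18 and Vps39 did not pass the test under every omission of 1 sample, and that of Vps41 did not pass it with all samples.

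Epg5 and Vamp8 were the fusion genes with a higher interaction. Epg5 rose in both lines, from 43 and 40.9 to 67.1 and 59.8 in WT MEFs and from 39.6 and 37.8 to 71.4 and 72.2 in RA MEFs, and the interaction was 0.29 (limma, SE 0.0791, BH-adjusted p = 0.00552). The higher level of Epg5 in starved RA MEFs was lost without the second starved WT or the second starved RA sample (adjusted p = 0.19 and 0.0626). Vamp8 fell in WT MEFs, from 29.3 and 29.1 to 20.3 and 22.9, and stood at 30.8 and 33.2 in normal and 29.9 and 28.2 in starved RA MEFs, a change that passed the test only without the first normal RA sample (adjusted p = 0.0495). Its interaction, 0.29 (limma, SE 0.0961, BH-adjusted p = 0.0205), was called in 11 of 16 alternative analyses, and was lost without the first normal WT, the first starved WT, the first normal RA or the first starved RA sample and with no filter (adjusted p up to 0.104).

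Rab7, the most abundant of the 40 mRNAs in CPM, stood at 248 ± 1.69 in normal and 345 ± 14 in starved WT MEFs, and at 284 ± 0.238 and 302 ± 2.02 in RA MEFs (mean ± SD, n = 2). It rose by 0.48 in WT and 0.09 in RA MEFs, with an interaction of -0.39 (limma, SE 0.0531, BH-adjusted p = 1.41e-05). The small rise in RA MEFs failed in 10 of 16 alternatives, 6 of them the omission of 1 normal WT, normal RA or starved RA sample (adjusted p up to 0.175). An antisense gene model, Gm5577, covers 7.82% of its exon bases and reached a value of 307, near that of Rab7 itself. Plekhm1 rose by 0.81 and 0.52, and its interaction of -0.29 (limma BH-adjusted p = 0.015) was lost without the first starved WT or the first starved RA sample and under scaling to total reads (adjusted p up to 0.0695). Tecpr1 rose in both lines, by 0.99 and 0.98, with an interaction of -0.01 and a 95% interval of -0.25 to 0.22.

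The SNAREs Stx17 and Snap29 rose in WT MEFs by 0.39 and 0.24, and in RA MEFs their changes of 0.13 and 0.02 did not pass the test. The interaction was -0.26 (limma BH-adjusted p = 0.0291) for Stx17, which held in 7 of 16 alternative analyses. It was lost by edgeR, by DESeq2, by scaling to total reads, with no filter and without 5 of the 8 samples in turn, namely the second normal WT, the first starved WT, the first normal RA and either starved RA sample (adjusted p up to 0.125). For Snap29 it was -0.21 (limma BH-adjusted p = 0.0885), and 0.0374 without the first starved WT sample. The rise of Snap29 in WT MEFs was itself lost without the first normal or the second starved WT sample (adjusted p = 0.0719 and 0.0919).

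**Figure D5:**
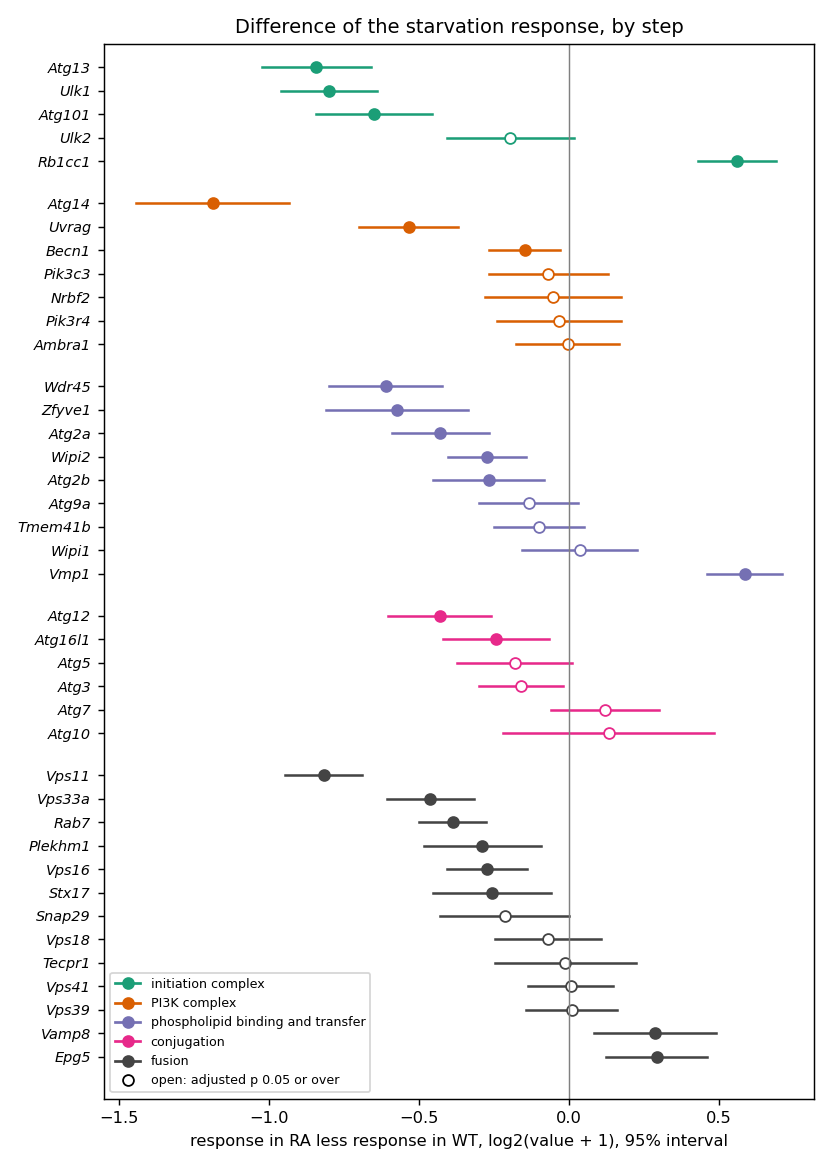
Each row is 1 of 40 genes, grouped and coloured by step. The x axis gives the response to glucose starvation in RA less that in WT MEFs on the log2(value + 1) scale, lines are 95% intervals of the single gene, and open circles did not pass the test. Filled circles lie left of 0 at every step, and those of Rb1cc1, Vmp1, Vamp8 and Epg5 lie to the right.

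The interactions with the lowest adjusted p came from 4 of the 5 steps. At a stricter adjusted p under 1e-05 the interaction was called for 6 genes: Ulk1 (chr5:110784488-110810097), Rb1cc1 (chr1:6206197-6276648), Atg13 (chr2:91674618-91710576), Atg14 (chr14:47540893-47570649), Vmp1 (chr11:86583865-86683836) and Vps11 (chr9:44347749-44361670). Coordinates are those of GENCODE M21 (GRCm38) and span the whole gene with its introns. At that threshold the lower genes were Ulk1, Atg13, Atg14 and Vps11, and the higher ones Rb1cc1 and Vmp1. No conjugation gene was among them. The share of all tested genes past this threshold was not counted, so nothing is read from the number or its spread over steps. Over all 16 alternative analyses, 17 of the 23 called interactions were called each time.

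Other genes of the pathway were read as lists, without the 40. Of 44 such genes that passed the filter, 29 rose and 10 fell in WT MEFs, beside 39.3% higher and 39.2% lower among all tested genes. In RA MEFs 31 rose and 6 fell, beside 35% higher and 33.7% lower among all. The interaction was lower for 22 and higher for 9, beside 26.1% lower and 24.5% higher among all, and the same shares apply to the lists below. Cargo receptors had the largest median change of these lists in WT MEFs, 1.13, against 0.55 in RA MEFs, and 6 of 11 had a lower and 1 a higher interaction. Of 9 ATG8 proteins and their proteases 4 had a lower and 1 a higher interaction, and of 12 lysosomal membrane and tethering genes 7 had a lower and 3 a higher one. Regulators and paralogues were divided, with 5 of 12 lower and 4 higher.

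The 2 lowest and the 2 highest interactions of these lists belonged to Trp53inp1, Calcoco1, Bcl2 and Rab7b. Trp53inp1, which binds ATG8 proteins and is a p53 target, went from 1.09 and 1.65 to 18.9 and 17 in WT MEFs and from 1.33 and 1.47 to 6.31 and 6.9 in RA MEFs, with an interaction of -1.34 (limma, SE 0.183, BH-adjusted p = 1.26e-05). Calcoco1, a receptor for turnover of the endoplasmic reticulum, went from 22 and 20.9 to 115 and 114 in WT and from 27.6 and 27.5 to 68.1 and 70.7 in RA MEFs, with an interaction of -1.06 (limma, SE 0.0692, BH-adjusted p = 2.19e-09). Both rose in both lines and rose less in RA MEFs. On the other side, Bcl2, a binding partner and inhibitor of Becn1, fell from 7.87 and 7.34 to 3.81 and 3.4 in WT MEFs and stood at 7.17 and 7.98 in normal and 7.17 and 7.14 in starved RA MEFs, with an interaction of 0.83 (limma, SE 0.15, BH-adjusted p = 0.000216). Rab7b, a relative of Rab7, fell from 8.22 and 9.63 to 0.293 and 0.585 in WT MEFs and from 9.29 and 10.2 to 4.54 and 4.34 in RA MEFs, with an interaction of 1.81 (limma, SE 0.18, BH-adjusted p = 3.88e-07).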

How the data were processed

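PolyA RNA of 8 libraries was prepared with the Illumina TruSeq v2 kit and sequenced as read pairs. Per the labels and methods, the authors mapped reads with TopHat2 (version 2.0.9) to mm9, and bedtools and edgeR are named without settings. The counter, annotation and strand handling are not given in the sources used here. The authors deposited a signal per gene symbol, a read count divided by a scaled library size, in CPM. Columns named minus and plus were read as normal medium and starvation, as the study marks its conditions. In each sample 100% of nonzero values were whole reads (tolerance 0.05), and 78.2% to 80.5% of counts from 1 to 9 were even, as arises when both mates are counted. A value of 3 reads lay between 0.0548 and 0.069. Read totals cover counting error only.

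Genes that reached a value of 1 in 2 or more samples were kept. limma (version 3.58.1, R 4.3.3) was fitted to log2(value + 1) as group means of the 8 samples, with eBayes and its trend, 2-sided, and BH adjustment over 16232 genes in each of 5 contrasts. The planned unit was plain CPM, and the same test was used. The code was tested on simulated data. Tests on the recovered reads by DESeq2 (version 1.42.0) or edgeR (version 4.0.16), another pseudocount, filters, scalings, a replicate block, a stricter threshold and omission of each sample were alternatives. Exon lengths and overlaps came from GENCODE M21 and promoters from RefSeq, both on GRCm38.

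The 40 genes, the lists and the tests were chosen with earlier results of these data known. Values in every sample were given for the genes with the lowest, highest and nearest-to-0 interaction of each step, 3 pairs of paralogues and the 2 lowest and 2 highest other genes. Sample values of the remaining genes were printed after their results had been seen. Replicates of a group differed by more than the counting noise of single reads (chi-square per degree of freedom 3.48 to 16.7). This measure takes each read as independent, so counting both mates of a pair raises it and the excess is overstated.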

Additional observations from a re-analysis of the deposited data

Results flagged for a closer look

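The response to starvation differed between the lines for 23 of the 40 genes by limma's interaction test over all 16232 genes (BH-adjusted p under 0.05), beside 24.5% higher and 26.1% lower calls among all tested genes. Groups held 2 samples, so single samples were not tested for standing apart. The values below are the log2 response in RA less that in WT MEFs.

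At initiation the difference was -0.80 for Ulk1, -0.84 for Atg13 and -0.65 for Atg101, while it was 0.56 for Rb1cc1. In the PI3K complex it was -1.19 for Atg14, -0.53 for Uvrag and -0.15 for Becn1. Among phospholipid binding and transfer genes it was -0.61 for Wdr45, -0.57 for Zfyve1, -0.43 for Atg2a, -0.27 for Wipi2 and -0.27 for Atg2b, while Vmp1 had 0.59. In conjugation it was -0.43 for Atg12 and -0.24 for Atg16l1. Among fusion genes it was -0.82 for Vps11, -0.46 for Vps33a, -0.39 for Rab7, -0.29 for Plekhm1, -0.27 for Vps16 and -0.26 for Stx17, with 0.29 for Vamp8 and 0.29 for Epg5.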

How the results depend on the processing

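The counts of called genes kept within 1.5 times in WT, RA, starved and interaction comparisons under another pseudocount, both filters, both scalings, edgeR, DESeq2 and the replicate block. With no filter, 1 of the 40 genes was called in normal medium in place of 3, with the replicate block 5, and without 1 sample in turn 0 to 2. At an adjusted p under 1e-05 the counts were 0 in normal medium, 9 under starvation, 22 for the RA response and 6 for the interaction. The shares of all tested genes at that threshold were not counted, so these numbers show only the loss of calls. The median change in normal medium was -0.012 under total-read scaling and 0.00809 to 0.0671 without 1 sample. The median difference under starvation was -0.151 under total-read scaling and -0.19 to -0.15 without 1 sample. The median WT response was 0.62 with a pseudocount of 0.1, 0.51 under total-read scaling, 0.61 by DESeq2 and 0.57 to 0.65 without 1 sample, and the median RA response 0.48 to 0.54 without 1 sample. The median interaction was -0.12 under total-read scaling, -0.16 by edgeR and -0.23 to -0.15 without 1 sample.

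Sign changes were seen for values that did not pass the test. Under total-read scaling the WT response of Atg5 was -0.000286, and the interaction was 0.000687 for Pik3c3, 0.0351 for Pik3r4, 0.0659 for Ambra1, 0.0161 for Nrbf2 and 0.0557 for Tecpr1. By edgeR it was 0.0252 for Ambra1 and 0.0174 for Tecpr1. Without 1 sample, the WT response of Vmp1 ran from -0.099 to 0.0182 and the RA response of Atg101 from -0.0546 to 0.088. The interaction ran from -0.148 to 0.0113 for Pik3c3, -0.0979 to 0.0304 for Pik3r4, -0.0718 to 0.0632 for Ambra1, -0.173 to 0.067 for Nrbf2, -0.0673 to 0.14 for Wipi1, -0.00357 to 0.267 for Atg10, -0.106 to 0.0823 for Tecpr1, -0.0347 to 0.0533 for Vps39 and -0.0527 to 0.0645 for Vps41. The cause of these shifts was not tested.

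The labels give only a replicate number and do not say whether it pairs the samples. Same-numbered deviations correlated at -0.0076 to 0.157, which does not settle it. Samples were treated as unpaired, with the replicate block as an alternative. With the replicate block 30 of the 40 genes were called under starvation, 37 in WT, 34 in RA and 24 in the interaction, and no median changed. The block brought the interaction of Atg3 and the WT fall of Nrbf2 over the threshold. With 2 samples per group, differences of the size left inside the intervals printed for Ambra1, Vps39 or Atg10 could not be resolved.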
